A study of Mus musculus with 8 samples.

Results

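The chondrogenic Sox trio consists of the transcription factor genes Sox9, Sox5 and Sox6. Its members were taken as every probe set that the platform annotation assigns to exactly 1 symbol, that symbol being Sox9, Sox5 or Sox6, which gave 14 of the 45101 probe sets on the array: 3 for Sox9, 7 for Sox5 and 4 for Sox6. They were read in rib chondrocytes of FVB mouse embryos at E18.5, counted in days from the vaginal plug, in 4 control samples labelled wild type and 4 samples labelled Hoxc8 transgenic. Each of 4 litters gave 1 control and 1 transgenic sample, called litters 1 to 4 here, after the embryos of a litter had been sorted by genotype. The cells had been freed from whole rib cages with collagenase and trypsin and strained, with no sorting step in the labels. The labels give neither the promoter that drives the transgene nor the number and sex of the embryos in a sample. Total RNA was hybridised to 1 Affymetrix array per sample, and each value is a MAS5 signal, an intensity on a linear scale.

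SOX9 is the SOXE protein without which cartilage does not form: it binds enhancers of cartilage matrix genes such as Col2a1 and Acan and activates them. SOX5 and SOX6 are closely related SOXD proteins that carry no transactivation domain of their own, bind DNA near SOX9 as dimers, and strengthen SOX9 at the same enhancers. The genes of all 3 proteins are active in proliferating growth plate chondrocytes, and Sox6 also acts in skeletal muscle and in red cell precursors. On these arrays a gene can have several probe sets, each a group of short probes against 1 stretch of transcript. The ending "_at" marks probes designed for 1 transcript, "_a_at" probes that recognise several transcripts of 1 gene, and "_x_at" a set in which some probes may also match other sequences. Signals are therefore compared only within a probe set.

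None of the 11 trio probe sets bright enough to be tested passed the genotype test, and most lay close to no change; the 1 that stood apart was the Sox5 probe set 1440827_x_at, about 1.48-fold higher in transgenic cells. Between litters, 4 of the 11 passed the test, among them both well measured Sox9 probe sets, against 9.00% of all probe sets tested. Among bright probe sets, with a mean signal of 500 or more, it called 20.6% of all and 4 of the 10 of the trio. None of these litter calls was left when the intensity trend was dropped from the variance estimate. Tested means that the mean signal over the 8 arrays was at least 110, the median over all probe sets; 3 members fell under it. The test was a limma fit on log2(signal + 22.2) with Benjamini-Hochberg adjustment over all 22519 probe sets tested and a threshold of 0.05.

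Across all tested probe sets the genotype test called 0%, so 0 of 11 trio probe sets is the same as the background. At an unadjusted p under 0.05 it took 1.09% of all probe sets and 1 of the 11. With the litter as a block in the model, the adjusted test again called 0% of all probe sets and 0 of the 11, and an unadjusted p under 0.05 was reached by 3.34% and by 2 of the 11. The trio's fitted differences were positive for 6 probe sets and negative for 5, with a median of 0.015 on the log2 scale against -0.0035 over all tested probe sets. The median size of a difference without its sign was 0.041 for the trio and 0.079 for all. Their errors were also on the small side, with a median standard error of 0.13 on the log2 scale against 0.16. In bulk samples such as these, fewer cells of a type and less RNA per cell cannot be told apart.

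**Figure D1:**
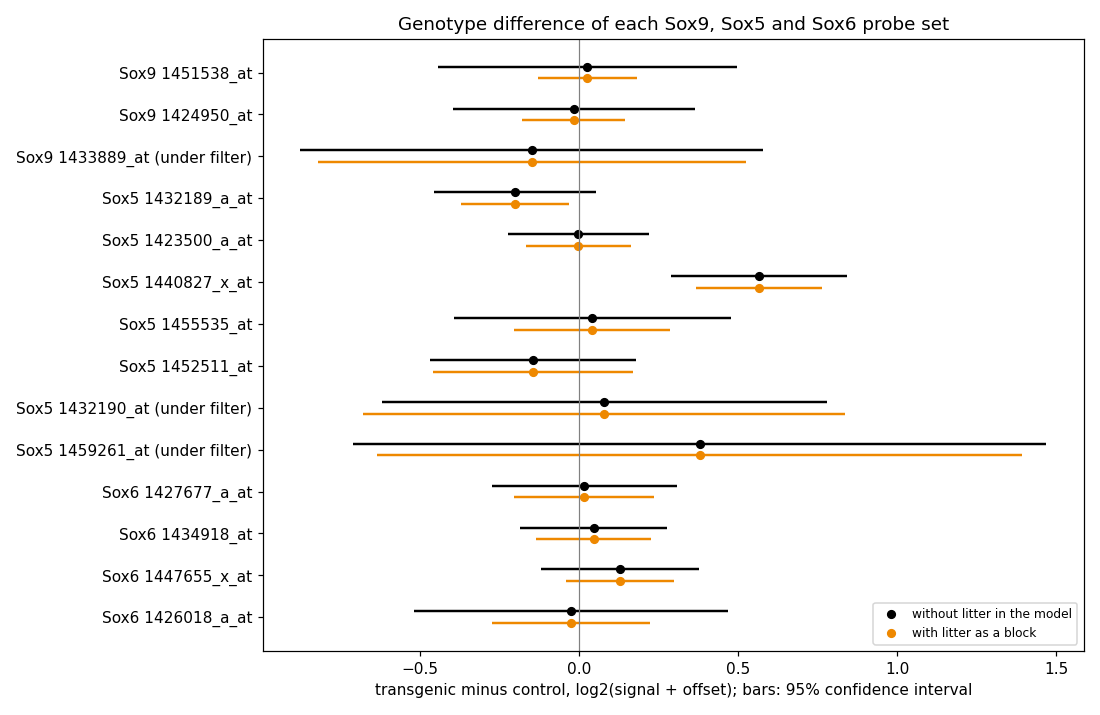
Fitted difference of each of the 14 trio probe sets, transgenic minus control, on the log2(signal + 22.2) scale; points are estimates from 4 against 4 arrays and bars are 95% confidence intervals, in black without and in orange with the litter in the model. Of the probe sets tested, the interval of Sox5 1440827_x_at excludes 0 in both fits and that of Sox5 1432189_a_at only with the litter.

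Sox9, the gene on which Sox5 and Sox6 depend in cartilage, had 2 well measured probe sets. For 1451538_at the control signals of litters 1 to 4 were 5073, 5652, 3388 and 3035, and the transgenic signals were 5467, 5132, 3665 and 3080. The 2 arrays of a litter lay close together and the genotypes overlapped over nearly their whole range, with both arrays of litters 1 and 2 high and both of litters 3 and 4 low. The mean was 4287 ± 1272 (SD, n = 4) in controls and 4336 ± 1146 (SD, n = 4) in transgenics. The fitted difference was 0.026 on the log2 scale (SE 0.22), with a 95% confidence interval from 0.735-fold to 1.41-fold. With the litter in the model the standard error fell to 0.071 and the interval ran from -0.13 to 0.18 on the log2 scale.

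The Sox9 probe set 1424950_at gave control signals of 5062, 4708, 4655 and 2922 and transgenic signals of 5163, 4403, 4151 and 3275. Here litter 4 alone was low, in both genotypes, and the genotypes overlapped again. The difference was -0.017 on the log2 scale (SE 0.18), an interval from 0.759-fold to 1.29-fold, and from -0.18 to 0.14 on the log2 scale with the litter in the model. Both Sox9 probe sets thus had intervals that reach neither a halving nor a doubling, and neither held its sign when arrays were left out, with values from -0.12 to 0.18 for 1451538_at and from -0.20 to 0.10 for 1424950_at. The third, 1433889_at, was dim, with 33.2, 58.6, 42.9 and 80.5 in controls and 16.9, 52.8, 56.1 and 63.9 in transgenics, and was not tested.

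**Figure D2:**
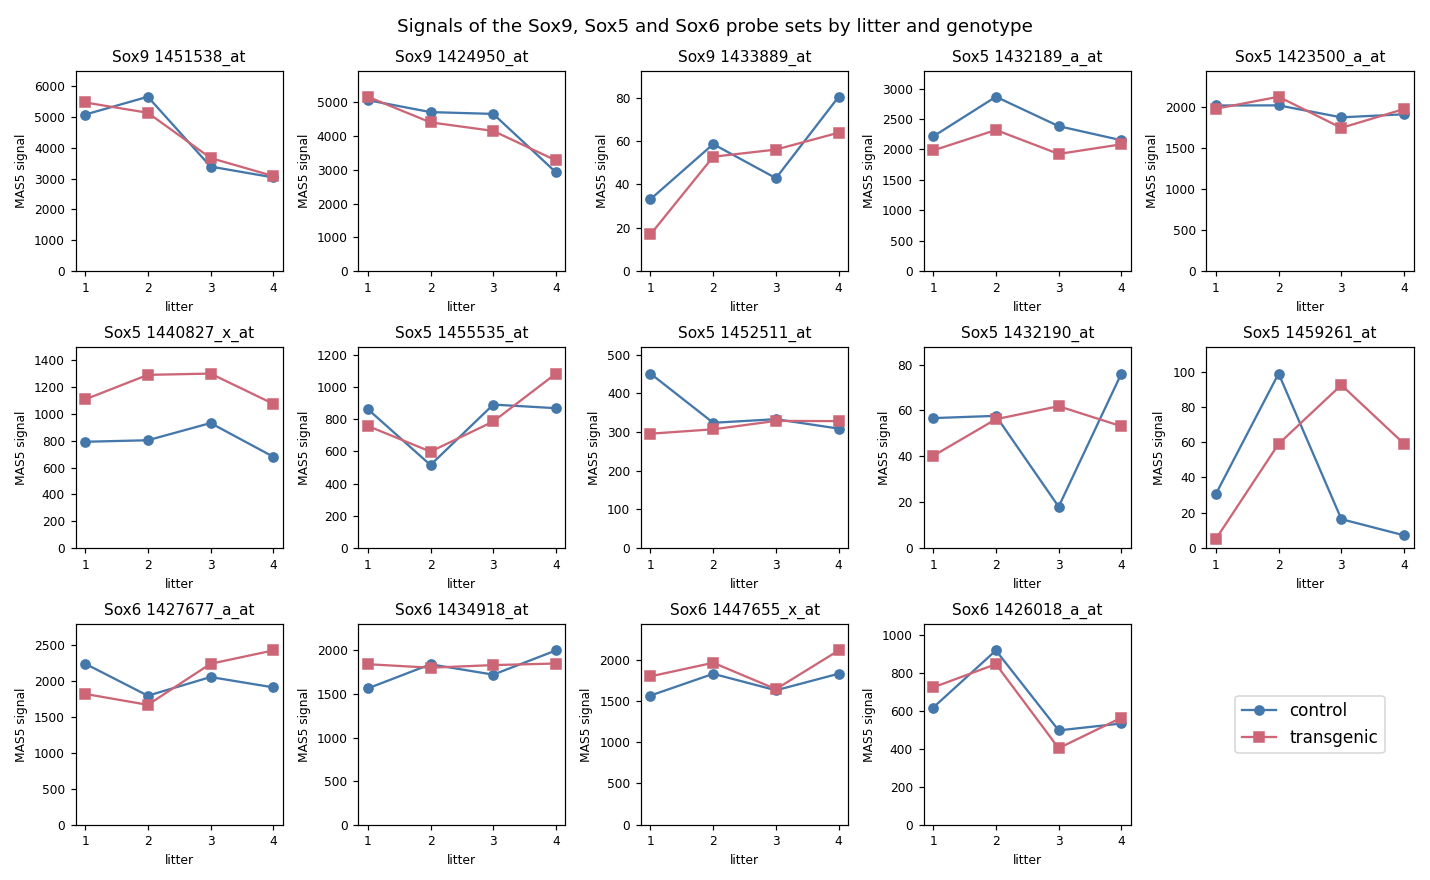
MAS5 signals of all 14 trio probe sets by litter, controls as blue circles and transgenics as red squares, each panel with its own axis from 0. Only for Sox5 1440827_x_at do the red squares lie above all blue circles; for Sox9 1451538_at both lines drop together from litter 2, at 5652 and 5132, to litter 3, at 3388 and 3665.

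Sox5 encodes a SOXD partner of SOX9 and is known to make more than 1 transcript, a long one in chondrocytes and shorter ones in testis. It was read by 7 probe sets that did not move alike. In 1440827_x_at the control signals of litters 1 to 4 were 792, 804, 932 and 680, and the transgenic signals were 1108, 1292, 1301 and 1076. Every transgenic array was above every control array, and the transgenic signal was 1.40, 1.61, 1.40 and 1.58 times that of the control of the same litter. The groups did not overlap in 1.02% of all tested probe sets, and this was the 1 trio probe set among them.

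The mean of 1440827_x_at was 802 ± 103 (SD, n = 4) in controls and 1194 ± 119 (SD, n = 4) in transgenics, a difference of 0.56 on the log2 scale (SE 0.13) with a 95% confidence interval from 1.22-fold to 1.79-fold. In limma the unadjusted p was 7.35e-04, the smallest of the 22519 tested, and the adjusted p was 0.9999; with the litter as a block they were 4.39e-05, again the smallest, and 0.989. The probe set therefore headed the list but did not pass, in either fit. Its difference stayed between 0.49 and 0.64 on the log2 scale over the 21 alternative settings, and the lowest adjusted p among them was that of the block. It ranked first by p in 8 of the 21 and no lower than 10 in the rest. Since its name ends in "_x_at", RNA other than Sox5 may contribute to its signal, and this was not tested.

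The brightest Sox5 probe set, 1432189_a_at, ran the other way in each litter. Its control signals were 2215, 2868, 2384 and 2152 and its transgenic signals 1984, 2321, 1927 and 2085. The transgenic array was the lower one in 4 of 4 litters, at 0.896, 0.809, 0.808 and 0.969 times its control, although the groups overlapped. The means were 2405 ± 323.9 (SD, n = 4) and 2079 ± 173.8 (SD, n = 4), and the difference was -0.20 on the log2 scale (SE 0.12). In limma the unadjusted p was 0.111 without and 0.0241 with the litter in the model, and the adjusted p-values were 0.9999 and 0.9998. A difference of the same sign in all 4 litters was seen in 10.6% of all tested probe sets and in 3 of the 11 of the trio: this one, 1440827_x_at and the Sox6 probe set 1447655_x_at.

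The second bright Sox5 probe set, 1423500_a_at, was level: 2015, 2017, 1871 and 1908 in controls against 1976, 2122, 1743 and 1972 in transgenics. All 8 arrays lay within a narrow band and the genotypes were interleaved. The difference was -0.0025 on the log2 scale (SE 0.10), with an interval from 0.855-fold to 1.16-fold, so a change as large as that of 1440827_x_at lay outside it.

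Sox5 1455535_at gave 864, 516, 892 and 870 in controls and 759, 599, 787 and 1085 in transgenics. Litter 2 was the lowest in both genotypes, and the genotypes overlapped. The difference was 0.041 on the log2 scale (SE 0.20). Sox5 1452511_at gave 451, 324, 333 and 309 in controls and 296, 307, 329 and 328 in transgenics, where the control of litter 1 was high and the other arrays were alike. Its difference was -0.15 on the log2 scale (SE 0.15), against -0.030 without that control and -0.0027 without litter 1.

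The last 2 Sox5 probe sets, 1432190_at and 1459261_at, had mean signals of 52.5 and 46.1 and were not tested. In 1459261_at the transgenic signal ranged from 0.164 to 8.30 times its control among the litters, a spread that leaves no direction to read.

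Within an array, the signal of 1440827_x_at was divided by that of each other tested Sox5 probe set, which removes anything that scales a whole array. This comparison was chosen after the signals had been seen and has no test. The ratio to 1432189_a_at was 0.280 to 0.391 in controls and 0.516 to 0.675 in transgenics. The ratio to 1423500_a_at was 0.357 to 0.498 in controls and 0.545 to 0.747 in transgenics, and that to 1452511_at was 1.76 to 2.80 and 3.28 to 4.21. For these 3 partners the genotypes were separate. For 1455535_at they overlapped, with 0.783 to 1.56 in controls and 0.991 to 2.16 in transgenics, while the transgenic ratio was the higher one in 4 of 4 litters. The numerator was picked for its separate genotypes, so the ratios describe that same difference again, and no Sox5 probe set passed the genotype test.

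**Figure D3:**
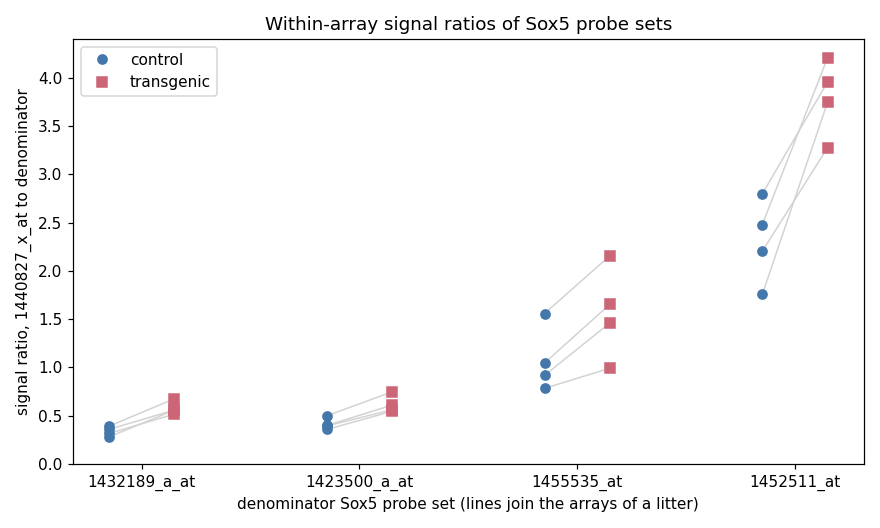
Ratio of the signal of Sox5 1440827_x_at to that of each other tested Sox5 probe set on the same array (linear axis from 0); blue circles are the 4 controls, red squares the 4 transgenics, and grey lines join the arrays of a litter. All 16 lines rise, and the genotypes are separate for every partner except 1455535_at; the height differs between partners because each probe set has its own scale.

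Sox6, the other SOXD partner, was read by 4 probe sets, all of them tested and none with separate genotypes. Sox6 1427677_a_at gave 2238, 1793, 2052 and 1909 in controls and 1818, 1666, 2237 and 2422 in transgenics. The transgenic array was the lower one in litters 1 and 2 and the higher one in litters 3 and 4. Its difference was 0.015 on the log2 scale (SE 0.13). Sox6 1434918_at gave 1564, 1841, 1723 and 2001 in controls and 1842, 1802, 1832 and 1850 in transgenics, with a difference of 0.045 (SE 0.11). The transgenic arrays were close to each other and inside the range of the controls.

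Sox6 1447655_x_at was the higher one in transgenics in 4 of 4 litters, with 1567, 1830, 1631 and 1832 in controls and 1799, 1964, 1644 and 2114 in transgenics. The groups overlapped, and in litter 3 the ratio was only 1.01. The difference was 0.13 on the log2 scale (SE 0.11), with an interval from 0.920-fold to 1.30-fold. Sox6 1426018_a_at gave 618, 920, 498 and 534 in controls and 725, 848, 404 and 564 in transgenics. Litter 2 was high and litter 3 low in both genotypes, and the difference was -0.026 on the log2 scale (SE 0.23). The 3 bright Sox6 probe sets had intervals that all lay between 0.826-fold and 1.30-fold.

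Some trio probe sets differed between litters where none did between genotypes. A limma F-test of litter, with genotype in the model and 2 arrays per litter, called 9.00% of all tested probe sets and 4 of the 11 of the trio; at an unadjusted p under 0.05 it took 27.7% and the same number. Bright probe sets were called more often: among those averaging 500 or more the test called 20.6%, and 4 of the 10 trio probe sets that bright. The 4 were both tested Sox9 probe sets, 1 of 5 for Sox5 and 1 of 4 for Sox6. For Sox9 1451538_at the litter means were 5270, 5392, 3527 and 3057, a range of 0.81 on the log2 scale or 1.76-fold (adjusted p 0.00101). Litters 1 and 2 overlapped, litter 3 lay below both, and litter 4 lay below litter 3. For Sox9 1424950_at the litter means were 5113, 4556, 4403 and 3099, a range of 0.72 on the log2 scale or 1.65-fold (adjusted p 0.00676), with litter 1 above the others, litters 2 and 3 overlapping and litter 4 apart at the bottom.

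Sox6 1426018_a_at had the widest litter range of the tested trio probe sets, 0.94 on the log2 scale or 1.92-fold, from 884 in litter 2 to 451 in litter 3 (adjusted p 0.0155). Sox5 1455535_at ranged over 0.78, or 1.72-fold, from 977 in litter 4 down to 557 in litter 2 (adjusted p 0.0356). So the 4 probe sets did not share an order of litters. Over the 11 tested, litters 1 to 4 were highest in 2, 4, 1 and 4 probe sets and lowest in 2, 3, 3 and 3.

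These litter calls depended on how the spread was estimated. Without the intensity trend in the variance estimate the F-test called 0 probe sets of the trio and 0 of all, and the adjusted p of Sox9 1451538_at became 0.113. Leaving out litter 2 left 2 trio calls, both Sox9, and leaving out litter 4 also left 2, Sox9 1451538_at and Sox6 1426018_a_at. Without litter 4 the range of Sox9 1424950_at was 0.22 on the log2 scale with an adjusted p of 0.322. Without litter 2 that of Sox5 1455535_at was 0.26 with an adjusted p of 0.516. Without litter 3 the call of Sox6 1426018_a_at was lost (adjusted p 0.0690), and without the signal filter that of Sox5 1455535_at (adjusted p 0.0746). Sox9 1451538_at kept its call in each of the 4 omissions, with adjusted p-values up to 0.0163.

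**Figure D4:**
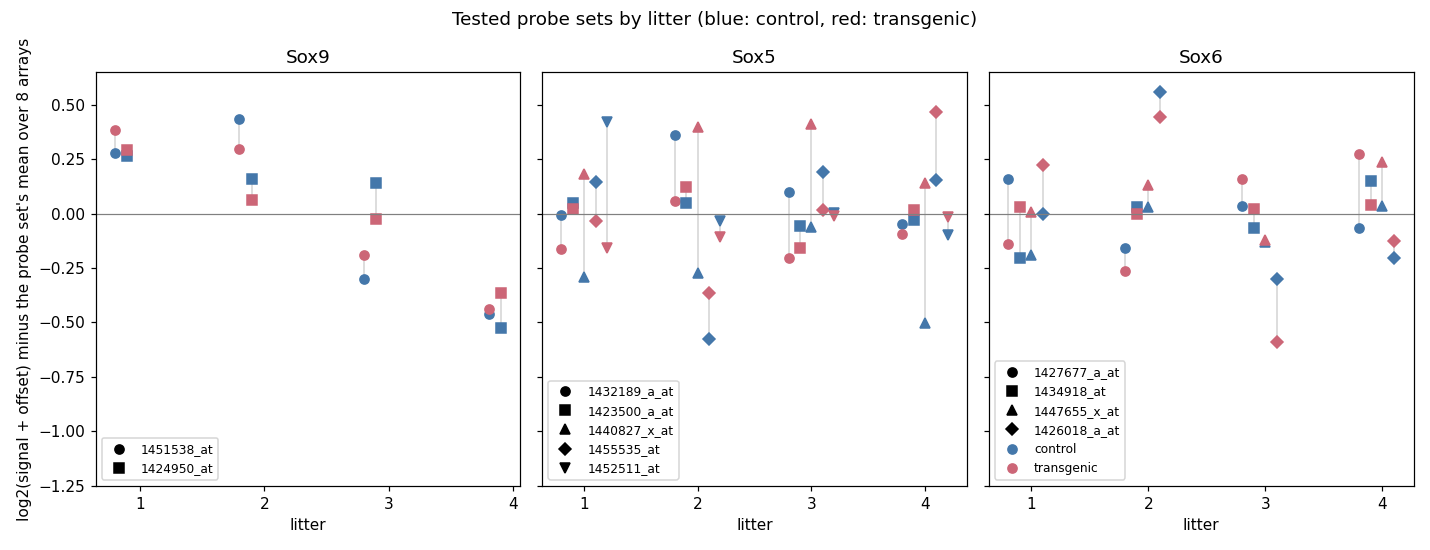
Level of each tested trio probe set by litter, as log2(signal + 22.2) minus that probe set's mean over the 8 arrays; each marker shape is a probe set, blue is control and red is transgenic, and grey lines join the arrays of a litter. Both Sox9 probe sets lie lowest in litter 4 in both genotypes, as does Sox5 1440827_x_at. By the mean of a litter's arrays, the other Sox5 and the Sox6 probe sets have other litters lowest.

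Measures of RNA quality and of other cells also moved with the litters. The ratio of 5′ to 3′ signal, which falls as RNA degrades, was lowest in litter 4 for both control genes, at 0.493 for beta-actin against 0.591 to 0.644 in the other litters and at 1.16 for Gapdh against 1.28 to 1.35. Sox9 was lowest in that litter, and the part of RNA quality in this was not tested. The summed signal of 12 of 12 skeletal muscle markers was 34367 and 34477 in litters 1 and 4 and 25237 and 25962 in litters 2 and 3. That sum is mostly Acta1 and Tnnt3, at 13043 and 10280 in litter 1. The single markers did not all follow it: litters 1 to 4 were highest in 4, 0, 4 and 4 of them and lowest in 0, 9, 2 and 1. Like the muscle sum, Sox5 1455535_at was highest in litter 4 and lowest in litter 2. Unlike that sum, it was higher in litter 3, at 839, than in litter 1, at 811. Neither Sox9 probe set was highest in litter 4 or lowest in litter 2, and the part of muscle cells in these levels was not tested. By genotype the muscle sum ran from 25377 to 35041 in controls and from 25096 to 33913 in transgenics. Of the single muscle markers, 7 were higher and 5 lower in transgenics, with none past the test. Myh3, an embryonic myosin, had the largest difference, at 0.56 on the log2 scale (SE 0.22). Pax7, a gene of muscle stem cells, followed at 0.25 (SE 0.16). The largest negative difference was that of Tnnc2, at -0.15 (SE 0.24), and it was lower in transgenics in each litter. Control signals of Myh3 in litters 1 to 4 were 115, 109, 243 and 148. In litters 1 and 2 these were near the signal filter.

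Of the 9 erythroid markers on the array 2 were above the filter, Alas2 of haem synthesis and Slc4a1, the anion exchanger of red cells. Their sum was lowest in litter 3 at 2431, against 3667 to 4223 in the others, and Sox6 1426018_a_at was lowest there too. So was Sox6 1447655_x_at, while Sox6 1427677_a_at was lowest in litter 2 and Sox6 1434918_at in litter 1. The sum is nearly all Alas2, at 2296 in litter 3, while Slc4a1 was lowest in litter 2, at 110.5 against 135 in litter 3. Alas2 differed by -0.16 (SE 0.21) and Slc4a1 by -0.14 (SE 0.29) between genotypes on the log2 scale. Of 10 neural, Schwann and melanocyte markers 3 were above it, Sox10, S100b and Mitf, summing to 7039 in litter 4 against 4584 to 5594 elsewhere, and Sox5 1455535_at was highest in litter 4. Of that sum 6702 was S100b, which differed by 0.050 (SE 0.17) between genotypes and is also made by chondrocytes. Sox10 was highest in litter 2, at 179, and Mitf in litter 3, at 248. Their part in the Sox levels was not tested.

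Markers of the labelled cell type were present throughout: 7 of 7 chondrocyte markers were tested, with sums of 226524, 252788, 214645 and 212223 in litters 1 to 4. Their 2 largest genotype differences were those of Matn1, a cartilage matrix protein, at -0.25 (SE 0.14), and of Col2a1. The 10 perichondrium and fibroblast markers summed to between 166039 and 185986, with 1 higher and 9 lower in transgenics and none past the test. Fbln5, an elastic fibre protein, differed by -0.27 (SE 0.22) and Thy1 by -0.25 (SE 0.36). Of 8 listed osteoblast markers, 6 were found as the 1 symbol of a probe set, and all 6 were tested. Of these 2 were higher and 4 lower, led by Ifitm5 at -0.39 (SE 0.34) and Ibsp at -0.21 (SE 0.22), both genes of bone-forming cells. Ifitm5 was near the filter of 110, with means of 140 in controls and 106 in transgenics.

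Genes that the trio is known to switch on were read in the same fits. All 24 listed SOX target genes of cartilage were tested, a gene being read by its brightest probe set: 12 were higher and 12 lower in transgenics, with a median difference of 0.0022 on the log2 scale against 0.0015 over the 10989 genes tested, and 0 passed the genotype test. At an unadjusted limma p under 0.05 there was 1, Papss2, an enzyme of sulphate activation, at 0.21 (SE 0.091), and 5 with the litter in the model: Papss2, Cytl1, Col9a2, Matn1 and Col2a1. Over all tested genes these shares were 0.91% and 3.08%. Papss2 was named after its values were seen.

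Col2a1, the type II collagen gene and the textbook target of all 3 factors, had control signals of 45102, 63257, 40568 and 40147 and transgenic signals of 39623, 45059, 39184 and 40101. It was the lower one in transgenics in 4 of 4 litters, by very little in litter 4, and the groups overlapped. Its difference was -0.18 on the log2 scale (SE 0.13). Acan, the aggrecan gene, was level at 0.035 (SE 0.13). Cytl1, a secreted protein of cartilage, had the largest fitted difference of the list at -0.36 (SE 0.55), and Col9a2, a chain of type IX collagen, had 0.27 (SE 0.20). With the litter in the model the SE was 0.10 for Cytl1, 0.097 for Col9a2 and 0.078 for Col2a1. The transgenic array was the lower one in 4 of 4 litters for Cytl1 and the higher one in 4 of 4 for Col9a2. Such a shared sign was seen in 10.6% of all tested probe sets, and none of these genes passed the adjusted test in either fit.

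Between litters, 10 of the 24 targets passed the F-test, or 41.7%, against 9.91% of all tested genes, with 0 of them left when the intensity trend was omitted. All 24 are bright genes: in the fit restricted to probe sets averaging 500 or more the shares were 13 of 24, or 54.2%, and 20.1% of genes. The 10 were Acan, Col9a2, Col11a2, Col27a1, Matn4, Wwp2, Fgfr3, Chadl, Cytl1 and Ccn2. Of these 10, 8 were lowest in litter 4, the litter in which both Sox9 probe sets were lowest, and 7 were highest in litter 2. The 5′ to 3′ ratios were lowest in litter 4 as well, and the part of RNA quality in these levels was not tested. Over all 24, litter 2 was the highest for 16 and litter 4 the lowest for 13, while over all tested probe sets litter 2 was highest in 29.5% and litter 4 lowest in 29.2%. The lists described next also had many genes lowest in litter 4. These were 10 of 18 signals and factors acting on the trio, 9 of 17 partners of SOX9 and 7 of 12 hypertrophic genes. So a low level in litter 4 was not particular to the targets. Litter 2 was the highest for 8 of the partners and 7 of the hypertrophic genes. It was the highest for only 4 of the 18 signals and factors, where litter 3 was the highest for 9. The targets share their arrays with Sox9, so this is a description of 4 litters. Acan gave 28330.2, 29993, 27145 and 22259 in controls and 29208, 32666, 28219 and 21013 in transgenics, with litter 4 below the other litters in both genotypes. Cytl1 went the other way and was lowest in litter 2.

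Signals and factors that act on the trio (from the BMP, TGF-beta, hedgehog, FGF, PTHrP, Notch and Wnt pathways, with Hif1a and Pax1) had 18 tested genes, 6 higher and 12 lower in transgenics, with 0 past the genotype test and 5 past the litter test. As in the targets, the litter counts of this and the next 2 lists stand against 9.91% of all tested genes, and 0 were left without the intensity trend. In the fit restricted to probe sets averaging 500 or more, the share was 20.1% of genes. Among the genes called in these lists, Fgfr3 and Wwp2 were already counted as targets. The 2 largest genotype differences of the signals and factors were those of Bmp2, a bone morphogenetic protein, at -0.32 (SE 0.21), and of Bmpr1b, a BMP receptor, at 0.20 (SE 0.14). Partners and modifiers of SOX9 had 17 tested genes, 9 higher and 8 lower, with 0 and 5 past the 2 tests. Zfp219, a zinc finger partner of SOX9, differed by -0.40 (SE 0.19) and Arid5a, another partner, by -0.18 (SE 0.26). The hypertrophic programme, which SOX9 holds back in proliferating cells, had 12 tested genes, 6 higher and 6 lower, with 0 and 2 past the tests, led by Mmp13, a collagenase, at 0.42 (SE 0.31) and Runx3 at -0.27 (SE 0.22).

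Of the 17 other Sox genes on the array, 9 were tested, 4 higher and 5 lower in transgenics, and 0 passed either test. Sox8 and Sox10, the SOXE relatives of Sox9, differed by 0.14 (SE 0.22) and 0.20 (SE 0.22) on the log2 scale. Sox1, Sox2, Sox3, Sox14, Sox15, Sox21, Sox30 and Sry were under the filter. Hoxc8 itself was read at 3519 ± 501 (SD, n = 4) in controls and 3885 ± 369 (SD, n = 4) in transgenics, a difference of 0.15 (SE 0.12) that did not pass the test, so it gave no clear check of the labels. The labels do not say whether this probe set reads the transgene.

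The probe sets of a gene differed in how far they moved together over the 8 arrays. These correlations are descriptions, since the arrays of a litter are not independent. Pearson's r of log2 signals was 0.80 between the tested Sox9 probe sets. For Sox5 1432189_a_at it was 0.46 with 1423500_a_at, 0.060 with 1452511_at, -0.43 with 1440827_x_at and -0.63 with 1455535_at. For Sox6 1427677_a_at it was -0.17 with 1447655_x_at, -0.30 with 1434918_at and -0.71 with 1426018_a_at. The Sox9 pair had the highest of these values. Between the brightest probe sets of the 3 genes, r was 0.38 for Sox9 with Sox5, -0.57 for Sox9 with Sox6 and -0.44 for Sox5 with Sox6.

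Among all tested probe sets of other genes, the patterns most like Sox9 1451538_at were those of Skiv2l (r = 0.98), Sox11 (0.97, by 1429051_s_at) and Ddr1 (0.97), all high in litters 1 and 2. Skiv2l encodes an RNA helicase and Ddr1 a collagen receptor. Ddr1 gave 603, 749, 500 and 449 in controls and 666, 678, 495 and 427 in transgenics. Most like Sox5 1432189_a_at were Neil3, a DNA repair glycosylase (0.97), D16Ertd472e (0.97) and Greb1l (0.96), and most like Sox6 1427677_a_at were Btbd1 (0.97), Cks1b, a cell cycle kinase subunit (0.97), and Naa15 (0.95). These values of r describe the 8 arrays and carry no test.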

How the data were processed

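Per the labels, total RNA was biotin-labelled and hybridised to 1 array per sample. The deposited values are intensity signals, which the authors made with MAS5 per the submitters' processing notes (version not given in the sources used here); the mean after trimming 2% at each end was 500 on every array, array medians were 107 to 121, and Spearman correlations between arrays 0.924 to 0.943. Precision is limited by how few arrays there are. Of 45101 probe sets, 34945 had 1 symbol in the annotation of 2016, 932 several, 9160 none and 64 were Affymetrix controls, which were left out of the tests; 34741 were found by Entrez ID in a RefSeq table (GRCm38.p6), which changed 0 symbols. No coordinates are given because no build is named for the array.

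Signals were tested as log2(signal + 22.2), the offset being their 20th percentile, which understates changes of dim probe sets. limma 3.58.1 in R 4.3.3 (lmFit, eBayes with intensity trend, two-sided) was fitted over the 22519 probe sets whose signal averaged 110 or more, without litter; the litter block was an alternative. The labels tie replicate numbers to litters, so they pair the arrays. Deviations of the arrays of a litter from their group means correlated at 0.025, 0.434, 0.376 and 0.379. The highest correlation of each control with a transgenic of another litter was 0.063, 0.013, 0.030 and 0.0042. For litter 1 the values therefore do not show the pairing, which rests on the labels. Named are every trio probe set, the 3 genes most like the brightest probe set of each, the 2 largest genotype differences of each list, Col2a1, Acan and Hoxc8. Further genes are named where a count or a sum rests on them. Members and lists were chosen with earlier results of these data known. Alternatives changed the offset (1 or 100), filter (none or 500), normalization, eBayes settings and arrays included.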

Additional observations from a re-analysis of the deposited data

Results flagged for a closer look

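Within a genotype's 4 arrays, the highest or lowest signal was marked where its gap to the nearest other exceeded Dixon's 95% critical share of the group's range. This was done for 74 groups, 28 of them of trio probe sets, and marked 6; chance marks about 1 in 20, or 3.7 here.

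The only trio probe set among them was Sox5 1455535_at, whose control of litter 2 read 515.7 against 863.6 for the next. The transgenic array of that litter was also the lowest of its group. Col2a1 read 45059 in the transgenic of litter 2, above the next at 40101, and the control of litter 2 was the highest too. Bmp2 read 1478 in the control of litter 4, below 2512. Alas2 read 2183 in the control of litter 3, below 4006. Ifitm5 read 227.1 in the control of litter 2, above 115.5. Ibsp read 427.1 in the transgenic of litter 1, below 564.2.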

How the results depend on the processing

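The genotype test called 0 trio probe sets and 0 of all under each of 21 alternatives, the replicate block included; with that pairing by litter, 752 of all probe sets were at an unadjusted p under 0.05 in limma, against 246 without it. Of 230 alternative values of single trio probe sets, 0 passed the threshold and 36 had the opposite sign, 34 of them on leaving out arrays. Median centring turned Sox5 1423500_a_at to 0.022 and Sox9 1424950_at to 0.0069. Leaving out arrays moved the log2 difference between -0.043 and 0.050 for Sox5 1423500_a_at, -0.14 and 0.17 for Sox5 1455535_at, -0.18 and 0.17 for Sox6 1426018_a_at, -0.093 and 0.12 for Sox6 1427677_a_at, -0.018 and 0.10 for Sox6 1434918_at, -0.20 and 0.10 for Sox9 1424950_at, and -0.12 and 0.18 for Sox9 1451538_at. The litter test called 995 of all probe sets without the filter, 0 without the intensity trend, and 562 (without litter 2) to 3047 (without litter 1) with a litter left out. For the trio it called 0 without the trend and 2 to 4 with a litter left out. The causes were not tested. With 4 arrays a genotype, the fit without litter left intervals that, at the median trio probe set, reached 0.29 either side on the log2 scale. With the litter in the model the interval of each tested trio probe set was narrower. For Sox9 1451538_at it ran from -0.13 to 0.18, against -0.44 to 0.50 without litter.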
